A study of Mus musculus with 55 samples.

Results

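The 7 genes described here, Gabra2, Gabra3, Gabra4, Gabra5, Gabrb1, Gabrb2 and Gabrd, encode subunits of the GABA-A receptor. They were chosen by their symbols and not by any measured value, and they make up 7 of the 55487 genes counted in mouse dorsal hippocampus. All 7 were abundant enough to be among the 16168 genes tested. Of the 19 GABA-A receptor genes counted, 13 were tested.

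GABA-A receptors are chloride channels that open when GABA binds and carry most of the fast inhibition in the brain. Each channel is assembled from alpha and beta subunits together with a gamma or a delta subunit, and the alpha subunit sets much of its kinetics, drug sensitivity and position on the cell. Receptors that pair alpha4 with delta, abundant in dentate granule cells, lie outside synapses, carry a steady inhibitory current and are very sensitive to neurosteroids made from progesterone, the hormone whose level moves over the estrous cycle.

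RNA was sequenced from the dorsal hippocampus of 55 adult mice on a C57BL/6J background, 43 females and 12 males, with 1 library per mouse. Females were assigned from vaginal cytology to metestrus, diestrus, proestrus or estrus, the 4 stages of the cycle. The WT groups were 4 metestrus, 6 diestrus, 5 proestrus, 7 estrus and 5 male mice. The Cnih3 knock-out (KO) groups were 5 metestrus, 6 diestrus, 4 proestrus, 6 estrus and 7 male mice. Cnih3 encodes an auxiliary protein of AMPA-type glutamate receptors, and the KO line lacks an internal exon in every cell. The line began from C57BL/6N stock and was backcrossed to C57BL/6J. All 28 KO mice and 11 of the 27 WT mice had a parent of the Cnih3 line (Cnih3 x B6 parents), and the other 16 WT mice came from B6 x B6 parents. These names are those of the study's sample table. Its methods describe matings among Cnih3 mutants, mostly heterozygotes, for the KO mice and their WT littermates, so Cnih3 x B6 is used here as the table's name and not as the cross that was set up. Ages ran from 10.86 to 23.71 weeks and were uneven over the groups, since 7 of the 12 diestrus mice and 10 of the 43 other mice were under 14 weeks. Of the diestrus mice under 14 weeks, 3 were WT and 4 were KO. No hormone level or treatment is given in the labels. RNA came from the supernatant of a detergent lysate spun at low speed, a step that leaves most nuclei behind.

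The depth of a library lay between 25881295 and 63547098 counts (median 53384170). Levels are given as log2 CPM, the log2 of counts scaled to a common library total, so that a difference of 1 is a 2-fold difference. Cnih3 itself, counted over all its exons, averaged 5.07 to 5.42 log2 CPM in the 5 WT groups and 4.79 to 5.10 in the 5 KO groups, and since reads of the exons outside the missing one are included it checks the labels only weakly. Differences were fitted with limma, which gave each library a weight by how well it followed its group. These weights ran from 0.19 to 2.35 with a median of 1.14, so a fitted difference is not the plain difference of 2 group means. A gene was called where its false discovery rate (FDR, Benjamini-Hochberg over the 16168 tested genes) was under 0.05. Where groups are said not to overlap, the share of all genes that did the same is not given, so this only describes the values. Bulk RNA cannot tell fewer cells of a type from less RNA per cell, and these values can be read as either.

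In several sets of RNA the diestrus mice under 14 weeks lay mostly apart from the older diestrus mice. These values belong beside every comparison with diestrus. The summed level of 8 RNAs known to be held in the nucleus was 555 to 923 CPM in the 7 diestrus mice under 14 weeks, 2450 to 3890 CPM in the 5 older diestrus mice and 856 to 4050 CPM in the 43 other mice. The summed level of 15 markers of mature oligodendrocytes was 3190 to 4130 CPM, 3780 to 5640 CPM and 4180 to 7590 CPM in the same order. Both sums were lowest in the young diestrus mice. For 8 markers of dentate granule cells, the cells that carry most delta subunit, the sums were 268 to 332 CPM, 308 to 388 CPM and 275 to 428 CPM. For 8 markers of astrocytes the order of the sums was the opposite, with 3370 to 3730 CPM in the young diestrus mice, 2090 to 3070 CPM in the older ones and 2140 to 4040 CPM in the other mice. Single astrocyte markers went both ways, so the sum does not stand for each of them. From KO diestrus to KO estrus, Aldoc (-0.68, FDR = 4.96e-05) and Aldh1l1 (-0.69, FDR = 0.00015) fell while Aqp4 rose (0.37, FDR = 0.0303). No marker of the nuclear, oligodendrocyte or dentate lists was at 0 in any library. The 7 young diestrus mice also have identifiers from 532 to 645, a range that holds no other mouse. The labels do not say what these numbers mark. Within diestrus, age, this number series, nuclear RNA and oligodendrocyte RNA moved together and cannot be told apart. Values without the 7 young mice are given beside the calls.

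Per kilobase of exon, the level of Gabra5 was the highest of the 7 at 5.77 ± 0.16 (SD, n = 55) log2 CPM per kb. Gabra4 followed at 4.42 ± 0.20, Gabra2 at 4.18 ± 0.49, Gabrd at 3.48 ± 0.31 and Gabrb1 at 3.37 ± 0.21. Gabra3 at 1.80 ± 0.25 and Gabrb2 at 1.56 ± 0.60 were the lowest. The members lay in 5 places of the genome (GRCm38, GENCODE annotation). Gabra2 (chr5:70957597-71095849, minus strand), Gabra4 (chr5:71569749-71658308, minus strand) and Gabrb1 (chr5:71658113-72149037, plus strand) share a cluster with Gabrg1 on chromosome 5. Gabra5 (chr7:57407672-57510059, minus strand) lies in a cluster with Gabrg3 on chromosome 7, and Gabrb2 (chr11:42419757-42629028, plus strand) lies on chromosome 11. No other tested GABA-A receptor gene lies near Gabra3 (chrX:72432681-72656848, minus strand) or Gabrd (chr4:155384980-155398112, minus strand). Receptor genes that were not tested were not placed, so untested neighbours are not covered.

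**Figure D1:**
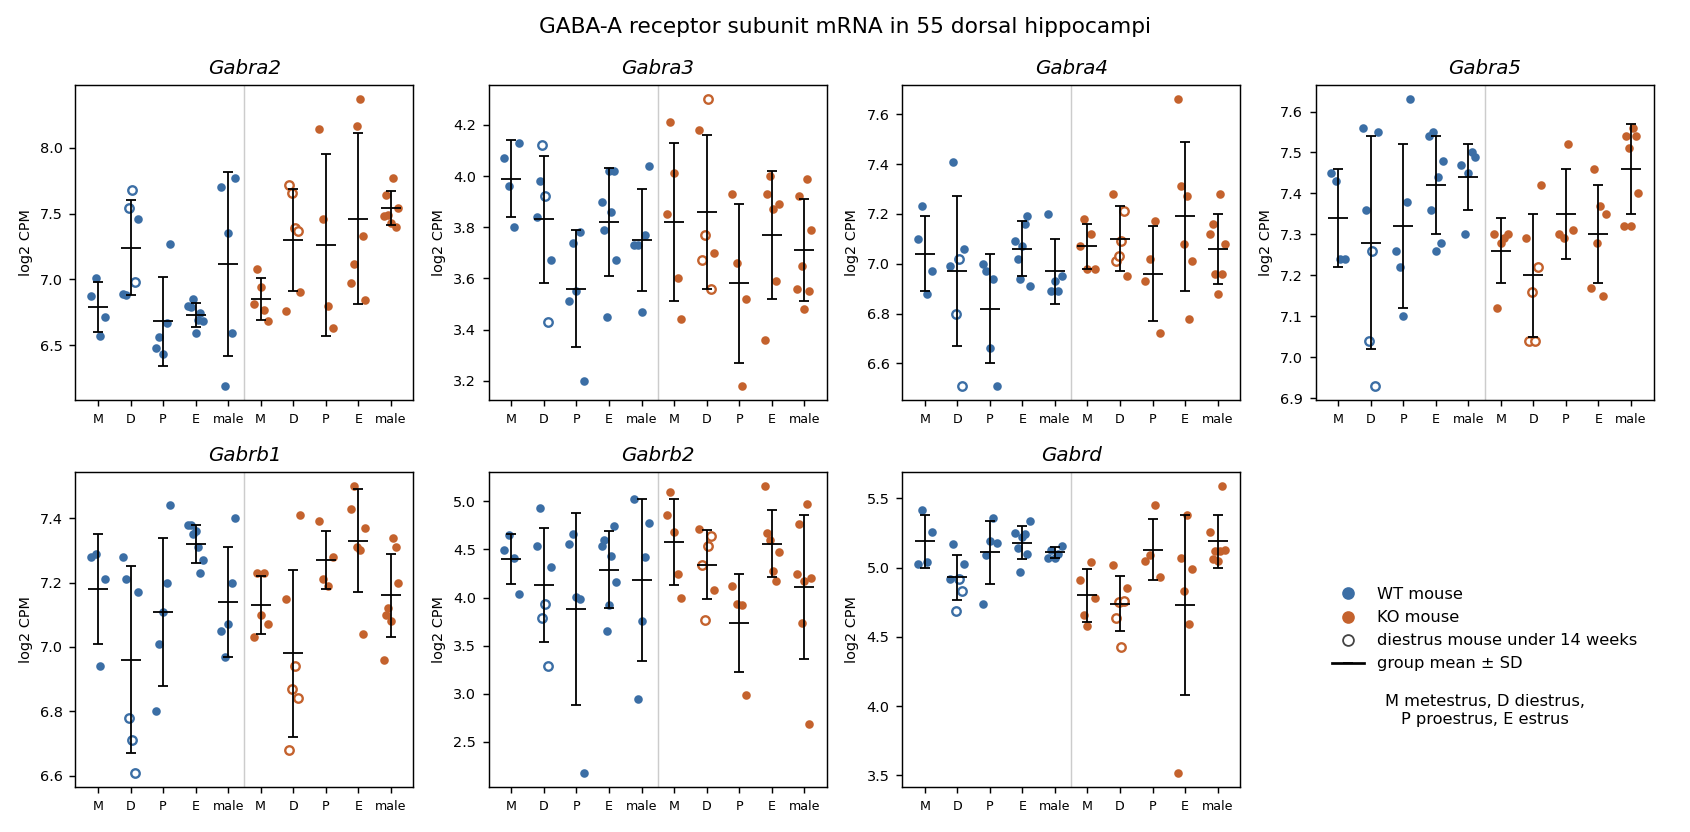
Level of each subunit mRNA in 55 mice, with log2 CPM on the vertical axis (a different range in each panel) and the 10 groups on the horizontal axis. Each point is 1 mouse, bars are the group mean ± SD, and open points are the 7 diestrus mice under 14 weeks. The open points are the lowest diestrus values for Gabrb1, and Gabrb2 has the widest spread, from 2.18 to 5.16.

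Of the 42 combinations of a member with a pair of WT stages, 3 were called and 12 had an unadjusted p under 0.05. Among KO stages, 4 of 42 were called and 14 had an unadjusted p under 0.05. By limma, 705 to 5901 of all 16168 genes were under that p in a pair of WT stages, and 1367 to 7009 in a pair of KO stages. The counts of members at that p have to be read beside these. All 7 FDR calls involved diestrus. The background of each comparison, the share of all 16168 genes called, moved in the same way and has to be read beside them. In WT mice, 7.24% of all genes were called between diestrus and metestrus, 9.66% between proestrus and diestrus and 22.1% between estrus and diestrus, against 0, 1 and 2 of the 7 members. Without diestrus the shares were 0.767% between proestrus and metestrus, 0% between estrus and metestrus and 6.82% between estrus and proestrus. Limma called 0 members in each of these, with 1, 1 and 3 members at an unadjusted p under 0.05. Of all 16168 genes, 2168, 705 and 3581 were under that p by limma, in the same order. In KO mice, 10.4% of all genes were called between diestrus and metestrus, 34.3% between proestrus and diestrus and 30.7% between estrus and diestrus, against 1, 2 and 1 of the 7 members. The shares were 4.37% between proestrus and metestrus, 0% between estrus and metestrus and 0.507% between estrus and proestrus. Again limma called 0 members in these, with 3, 2 and 2 members at an unadjusted p under 0.05. Of all 16168 genes, 3777, 1367 and 3078 were under that p by limma, in the same order. In both genotypes, edgeR and DESeq2 called 0 members over all 6 pairs of stages. The shares of all genes called by edgeR and DESeq2 are not given here, so this 0 may not be particular to the members. The median difference of the members from diestrus to estrus was 0.17 in WT mice, beside 0.01 for all genes, and 0.16 in KO mice, beside 0.01. From diestrus to proestrus it was -0.02 in WT mice, beside 0.03 for all genes, and 0.03 in KO mice, beside 0.03. These comparisons share groups with each other, so the 7 calls are not separate observations.

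**Figure D2:**
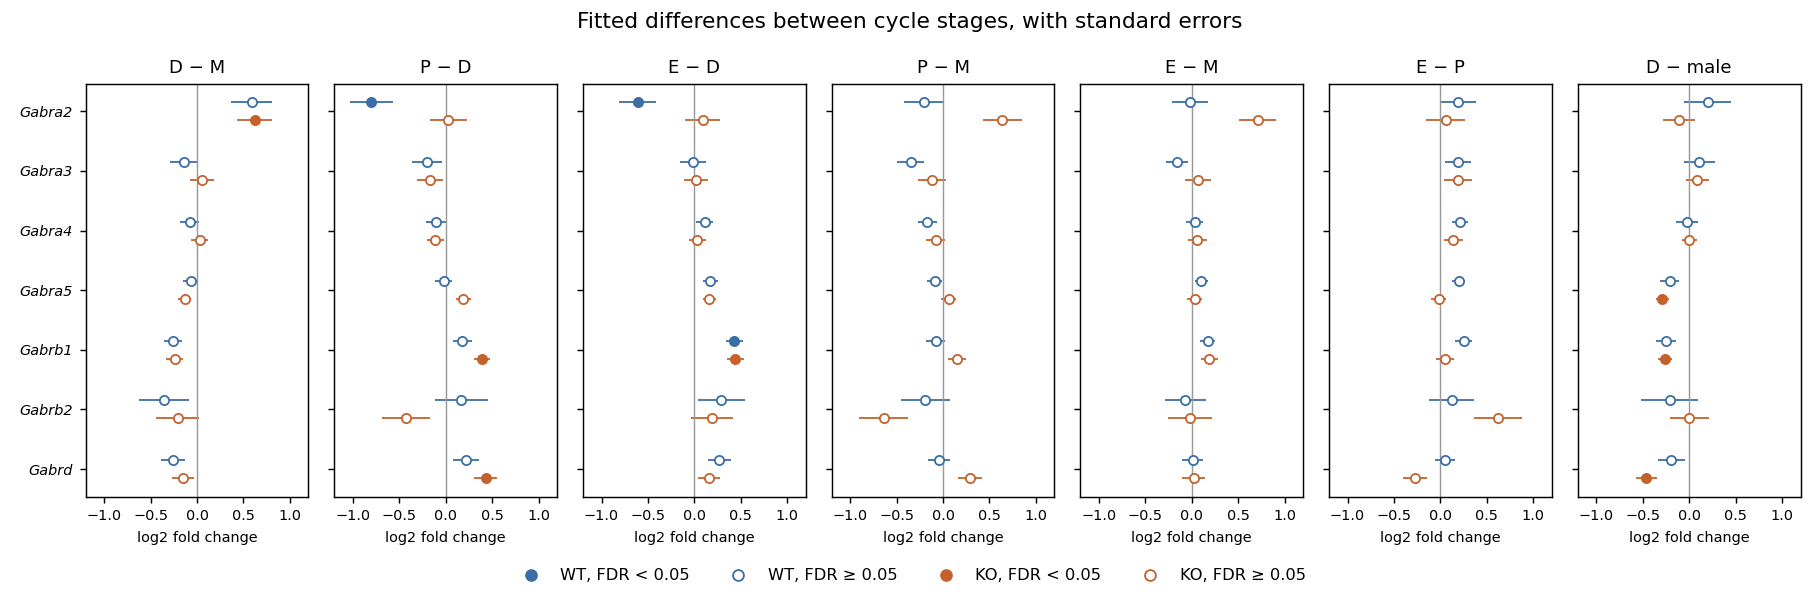
Fitted log2 fold change of each member between pairs of stages, and between diestrus and males, with bars of 1 standard error and a panel for each comparison. Blue points are WT, orange points are KO, and filled points passed an FDR of 0.05. Filled points appear only in panels that involve diestrus, for Gabra2, Gabra5, Gabrb1 and Gabrd.

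Gabra2 encodes the alpha2 subunit, found at synapses on the axon initial segment and soma of pyramidal cells. It varied more between mice than any other member except Gabrb2, from 6.19 to 8.37 log2 CPM, with a within-group SD of 0.41. The 250 bases before its annotated start (chr5:71095850-71096099, minus strand, GRCm38.p6, RefSeq), shown because this gene differed between genotypes as well as between stages, are 70% G or C and hold 1 GC box (GGGCGG or its complement, in capitals), the letters bound by Sp1-type factors.

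Gabra2: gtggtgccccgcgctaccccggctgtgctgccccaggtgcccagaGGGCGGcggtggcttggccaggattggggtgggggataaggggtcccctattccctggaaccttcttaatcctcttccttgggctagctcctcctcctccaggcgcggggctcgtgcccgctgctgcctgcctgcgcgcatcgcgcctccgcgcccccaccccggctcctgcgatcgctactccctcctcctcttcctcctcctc

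In WT proestrus the levels were 6.43, 6.48, 6.56, 6.67 and 7.27 log2 CPM, and in WT estrus they lay between 6.59 and 6.85 (median 6.74). In WT diestrus the lowest was 6.88, the median 7.22 and the highest 7.68. The estrus mice all lay below the diestrus mice, while 1 proestrus mouse lay among them. Gabra2 fell by 0.80 ± 0.23 (log2 fold change ± SE, FDR = 0.0221) from diestrus to proestrus and by 0.61 ± 0.20 (FDR = 0.025) from diestrus to estrus. WT metestrus held 6.57, 6.71, 6.87 and 7.01, and the rise from there to diestrus missed the threshold at 0.59 ± 0.22 (FDR = 0.0797). In KO mice the same step was called, at 0.62 ± 0.19 (FDR = 0.0309), from 6.68, 6.77, 6.81, 6.94 and 7.08 in metestrus to a lowest of 6.76, a median of 7.38 and a highest of 7.72 in diestrus. The KO groups overlapped. KO Gabra2 held 6.63, 6.80, 7.46 and 8.14 in proestrus and a lowest of 6.84, a median of 7.22 and a highest of 8.37 in estrus, and the differences from diestrus were 0.03 (95% interval -0.37 to 0.43, FDR = 0.938) and 0.09 (95% interval -0.29 to 0.47, FDR = 0.734).

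The young diestrus mice held most of the high Gabra2 values of that stage. The 7 diestrus mice under 14 weeks held 6.98 to 7.72 log2 CPM with a median of 7.54, and the 5 older ones 6.76 to 7.46 with a median of 6.89. Without the 7 young mice the KO step from metestrus to diestrus was -0.01 (FDR = 1) in place of 0.62, and the WT differences kept their direction at -0.60 (FDR = 0.683) in place of -0.80 for proestrus and -0.39 (FDR = 0.758) in place of -0.61 for estrus, with 3 WT diestrus mice left. The KO step was also lost without any 1 of 3 metestrus mice or 3 young diestrus mice, at 0.52 to 0.60 with an FDR of 0.0581 to 0.135. Leaving out any 1 of the 3 young WT diestrus mice ended the WT calls with little change in the differences, which were -0.79 to -0.74 (FDR 0.141 to 0.173) for proestrus and -0.59 to -0.54 (FDR 0.181 to 0.222) for estrus, and without 1 WT proestrus mouse the difference from diestrus to proestrus was -0.74 (FDR = 0.0825). All 3 young WT diestrus mice had Cnih3 x B6 parents.

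KO mice had higher Gabra2 than WT mice in proestrus and estrus. In proestrus the mean was 7.26 ± 0.69 (SD, n = 4) in KO and 6.68 ± 0.34 (SD, n = 5) in WT mice, a fitted difference of 0.93 ± 0.22 (FDR = 0.0427), or 90.1% higher. In estrus it was 7.46 ± 0.65 (SD, n = 6) against 6.73 ± 0.09 (SD, n = 7), a fitted difference of 0.80 ± 0.18 (FDR = 0.044), or 74% higher. In both stages the groups overlapped, and 3 KO mice, 1 in proestrus at 8.14 and 2 in estrus at 8.17 and 8.37, stood above every other mouse of the series. Without the KO proestrus mouse at 8.14 the difference in proestrus was 0.48 (FDR = 0.513), and without the KO estrus mouse at 8.17 the difference in estrus was 0.48 (FDR = 0.468). Without the KO estrus mouse at 8.37, whose library had a weight of 0.66 against 1.78 for the one at 8.17, it was 0.62 (FDR = 0.128). Both calls lay close to the threshold and were lost with 15 and 17 of the 55 single mice left out. Over all groups the difference was 0.46 ± 0.09 (FDR = 0.00117), and it passed the threshold with any 1 of the 55 mice left out, between 0.38 and 0.51, while without all 7 young diestrus mice it was 0.38 (FDR = 0.0548).

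These calls stood against few calls among all genes. Between KO and WT mice, 0.315% of all genes were called in proestrus, 0.179% in estrus, 0.0247% in metestrus, 0.00619% in males and 0% in diestrus, and 3.4% over all groups. Gabra2 was the 1 member called in proestrus, in estrus and over all groups. In metestrus, diestrus and males limma called 0 members, with 1, 0 and 0 at an unadjusted p under 0.05. Of all 16168 genes, 1457, 1321 and 845 were under that p by limma, in the same order. EdgeR and DESeq2 called 0 members in any of these genotype comparisons. Their shares of all genes called are not given here, so this 0 may not be particular to the members. The Gabra2 difference was 0.08 ± 0.21 in metestrus, 0.10 ± 0.21 in diestrus and 0.42 ± 0.22 (FDR = 0.968) in males, where KO mice held 7.40 to 7.77 with a median of 7.49 and WT mice held 6.19, 6.59, 7.35, 7.70 and 7.77.

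Parental mating moved with Gabra2 inside the WT mice. The 16 WT mice of B6 x B6 parents held 6.19 to 7.01 log2 CPM with a median of 6.70, the 11 WT mice of Cnih3 x B6 parents 6.59 to 7.77 with a median of 7.35, and the 28 KO mice, all of Cnih3 x B6 parents, 6.63 to 8.37 with a median of 7.38. No B6 x B6 mouse was above 7.01, while 7 WT mice of Cnih3 x B6 parents were. The WT groups are uneven in this respect, with 6 of 7 estrus and 4 of 5 proestrus mice of B6 x B6 parents, against 2 of 6 diestrus and 1 of 5 male mice. The 1 Cnih3 x B6 mouse was at 6.68 in estrus and 6.87 in metestrus, inside the B6 x B6 ranges of 6.59 to 6.85 and 6.57 to 7.01. In proestrus it was at 7.27, against 6.43 to 6.67, in a library with a weight of 0.19. In diestrus these mice held 6.98 to 7.68 against 6.88 to 6.89, and in males 6.59 to 7.77 against 6.19. With a term for the mating in the model, Gabra2 was 0.27 ± 0.19 higher in mice of Cnih3 x B6 parents (FDR = 0.875 by limma). That term called 0.00619% of all genes and 0 of the 7 members, of which 0 had an unadjusted p under 0.05. With it, KO and WT mice differed by 0.31 (FDR = 0.194) over all groups, by 0.67 (FDR = 0.532) in proestrus and by 0.57 (FDR = 0.22) in estrus. Among mice of Cnih3 x B6 parents alone the difference was 0.31 (FDR = 0.213) over all groups, with 1 WT mouse left in each of proestrus and estrus. As background, the C57BL/6J substrain carries a small intronic deletion in Gabra2 that lowers its mRNA and that C57BL/6N lacks. The allele of each mouse was not analysed here, and its part in these differences was not tested.

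**Figure D3:**
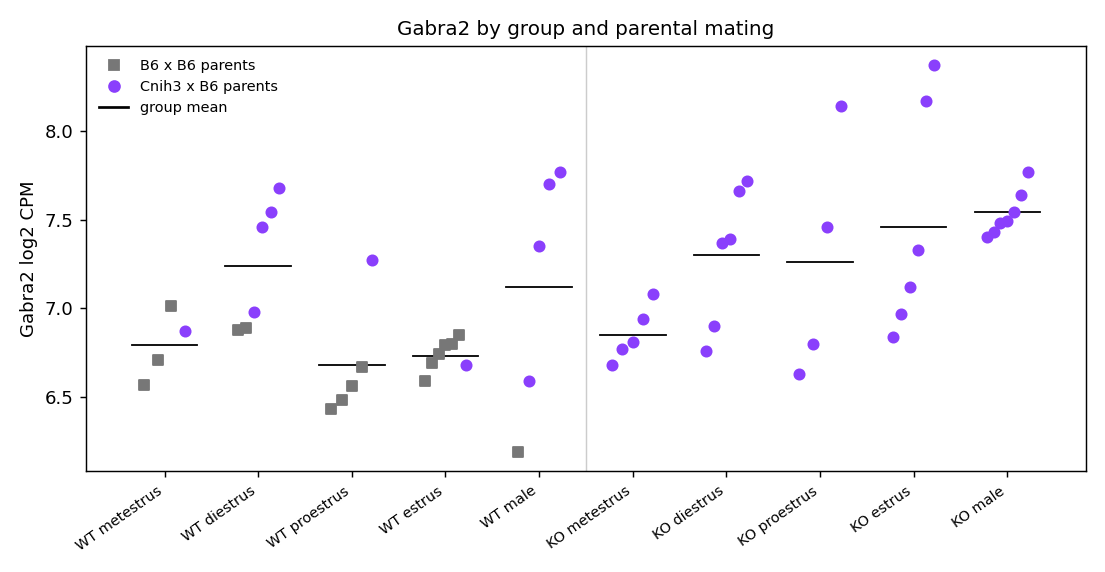
Gabra2 level (log2 CPM, vertical axis) in each of 55 mice by group, with a horizontal line at each group mean. Grey squares are WT mice of B6 x B6 parents and purple circles are mice with a parent of the Cnih3 line. The 16 squares lie between 6.19 and 7.01, and values above 8 appear only in KO proestrus and KO estrus.

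The transcript estimates for Gabra2 divided between a protein-coding form, Gabra2-203, with 51.6% ± 4.49 (SD, n = 55) of the gene's estimated counts, and a form annotated as a target of nonsense-mediated decay, with 47.2% ± 4.29. The share of this second form was 48.2% ± 3.90 (SD, n = 16) in mice of B6 x B6 parents and 46.8% ± 4.42 (SD, n = 39) in mice of Cnih3 x B6 parents. These shares differed by less than the spread between mice.

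Gabra3 encodes the alpha3 subunit, prominent on monoaminergic neurons of the brainstem. It ran from 3.18 to 4.30 log2 CPM with a within-group SD of 0.24, and it was called in no comparison. Its WT proestrus values of 3.20, 3.51, 3.55, 3.74 and 3.78 lay below its WT metestrus values of 3.80, 3.96, 4.07 and 4.13. The groups did not overlap, yet the difference of -0.35 ± 0.15 had an FDR of 0.267. The interval of the difference, -0.64 to -0.05 at 95% without adjustment, shows how loosely it is known.

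Gabra4 encodes the alpha4 subunit, the usual partner of delta in neurosteroid-sensitive receptors. It ran from 6.51 to 7.66 log2 CPM with a within-group SD of 0.19. Group means lay between 6.82 ± 0.22 (SD, n = 5) in WT proestrus and 7.19 ± 0.30 (SD, n = 6) in KO estrus. It was called in no comparison of stage, sex or genotype. Its lowest p between WT stages was for estrus against proestrus, at 0.21 ± 0.09 (unadjusted p = 0.0257, FDR = 0.154 by limma). Between diestrus and proestrus the difference was -0.10 ± 0.11 in WT mice, with a 95% interval of -0.31 to 0.12, and -0.11 ± 0.09 in KO mice, with an interval of -0.30 to 0.08. Over all groups KO mice were 0.11 ± 0.04 (FDR = 0.158) above WT mice. The coding form Gabra4-201 took 81.6% ± 3.95 (SD, n = 55) of the gene's estimated counts.

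The gene starts of Gabra4 and Gabrb1 lie head to head, and in the annotation the genes overlap by 196 bases. The sequencing kit keeps no strand, so reads from the overlap cannot be told apart. The main Gabrb1 form, Gabrb1-201, with 94.1% ± 1.79 (SD, n = 55) of that gene's estimated counts, starts 41.6 kb away from the Gabra4 start. The 250 bases before each of these starts (RefSeq, GRCm38.p6, chr5:71658309-71658558 on the minus strand for Gabra4 and chr5:71699682-71699931 on the plus strand for Gabrb1) are shown because Gabrb1 was called 4 times and its neighbour Gabra4 in no comparison. Capitals mark the GC boxes, of which Gabra4 has 2 and Gabrb1 has 0, with 61.2% and 50.8% of G or C.

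Gabra4: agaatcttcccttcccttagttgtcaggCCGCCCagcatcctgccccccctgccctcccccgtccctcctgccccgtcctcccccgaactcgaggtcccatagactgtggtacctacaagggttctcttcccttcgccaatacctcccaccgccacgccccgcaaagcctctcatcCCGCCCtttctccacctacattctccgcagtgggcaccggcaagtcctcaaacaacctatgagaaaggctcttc
Gabrb1: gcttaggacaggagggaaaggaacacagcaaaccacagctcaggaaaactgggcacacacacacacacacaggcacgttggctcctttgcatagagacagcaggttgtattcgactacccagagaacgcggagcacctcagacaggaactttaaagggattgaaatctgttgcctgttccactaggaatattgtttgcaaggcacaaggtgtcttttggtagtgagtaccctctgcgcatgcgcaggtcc

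Gabra5 encodes the alpha5 subunit, concentrated in hippocampal pyramidal cells and mostly outside synapses. It was the steadiest member, from 6.93 to 7.63 log2 CPM with a within-group SD of 0.15. In KO males it held 7.32 to 7.56 with a median of 7.51, and in KO diestrus a lowest of 7.04, a median of 7.19 and a highest of 7.42. The groups overlapped. Gabra5 was lower in KO diestrus than in KO males, with a log2 fold change of -0.29 ± 0.07 (FDR = 0.00103). The 7 young diestrus mice held 6.93 to 7.26 and the 5 older ones 7.29 to 7.56, with no overlap, and without the young mice the difference was -0.10 (FDR = 0.901). The 10 young mice of other groups held 7.12 to 7.45. The 250 bases before its start (chr7:57510060-57510309, minus strand, GRCm38.p6, RefSeq), shown for the most abundant member, are 56.4% G or C and match none of the motifs searched.

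Gabra5: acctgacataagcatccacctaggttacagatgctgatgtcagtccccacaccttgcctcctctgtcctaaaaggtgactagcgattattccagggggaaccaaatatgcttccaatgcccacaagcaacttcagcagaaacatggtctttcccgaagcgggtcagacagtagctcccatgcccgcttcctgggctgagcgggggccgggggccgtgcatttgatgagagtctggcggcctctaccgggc

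Motifs were searched as letters on both strands of these windows. In 10 windows for 6 of the 7 members, 0 held the estrogen receptor core site AGGTCA, the full estrogen response element (GGTCA and TGACC with 3 bases of any kind between them) or the cAMP response element TGACGTCA, which stand in 14%, 0.0883% and 1.57% of 32851 such windows of all genes. The core site TGTTCT of progesterone and glucocorticoid receptors stood in 2 of 3 Gabrb2 windows and in 16.1% of all windows. TATAAA stood in both Gabra3 windows and 1 Gabrb2 window and in 12.4% of all, and the GC box in 32.8% of all. A match is a description of letters, and the lack of one says only that these letters are not in the window.

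Gabrb1 encodes the beta1 subunit, and beta subunits carry part of the GABA binding site. Its mean was lowest in diestrus in both genotypes, at 6.96 ± 0.29 (SD, n = 6) in WT and 6.98 ± 0.26 (SD, n = 6) in KO mice. In WT diestrus the lowest level was 6.61, the median 6.97 and the highest 7.28 log2 CPM, and in WT estrus 7.23, 7.35 and 7.38. Estrus was 0.43 ± 0.09 (FDR = 0.00128) above diestrus, or 34.6% higher. In KO diestrus the lowest was 6.68, the median 6.90 and the highest 7.41, in KO proestrus the values were 7.19, 7.21, 7.28 and 7.39, and in KO estrus they ran from 7.04 to 7.50 with a median of 7.34. All these groups overlapped with diestrus. KO proestrus was 0.39 ± 0.09 (FDR = 0.000912) and KO estrus 0.44 ± 0.09 (FDR = 0.000227) above KO diestrus. KO males, at 6.96 to 7.34 with a median of 7.12, were above KO diestrus, with a log2 fold change of -0.26 ± 0.08 (FDR = 0.01) for diestrus minus male. Without the young KO diestrus mouse at 6.68 this was -0.19 (FDR = 0.0992), and without the one at 6.84 it was -0.23 (FDR = 0.0519).

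The Gabrb1 diestrus values split cleanly between young and older mice, a split that cannot be told apart from the number series of the young ones. The 3 young WT diestrus mice held 6.61, 6.71 and 6.78 and the 3 older ones 7.17, 7.21 and 7.28. The 4 young KO diestrus mice held 6.68, 6.84, 6.87 and 6.94 and the 2 older ones 7.15 and 7.41. No young diestrus mouse reached the lowest older one. The 10 young mice of other groups held 6.80 to 7.43 with a median of 7.22, and 1 of them, in WT proestrus at 6.80, lay within the range of the young diestrus mice. The 33 older mice of other groups had a median of 7.23. The 10 were aged 12 to 13.57 weeks and the 7 young diestrus mice 10.86 to 13.86 weeks, 4 of them under 12. Without the 7 young diestrus mice the Gabrb1 differences were 0.11 (FDR = 0.789) for WT estrus, 0.01 (FDR = 0.995) for KO proestrus, 0.05 (FDR = 1) for KO estrus and, for diestrus minus male in KO, 0.11 (FDR = 0.888), with the direction turned. The quality weights leaned to the young KO mice, at 1.61 to 1.74 against 0.43 and 0.51 for the 2 older ones. Without any 1 of the 3 young WT diestrus mice the WT difference was 0.19 to 0.21 (FDR 0.231 to 0.274).

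**Figure D4:**
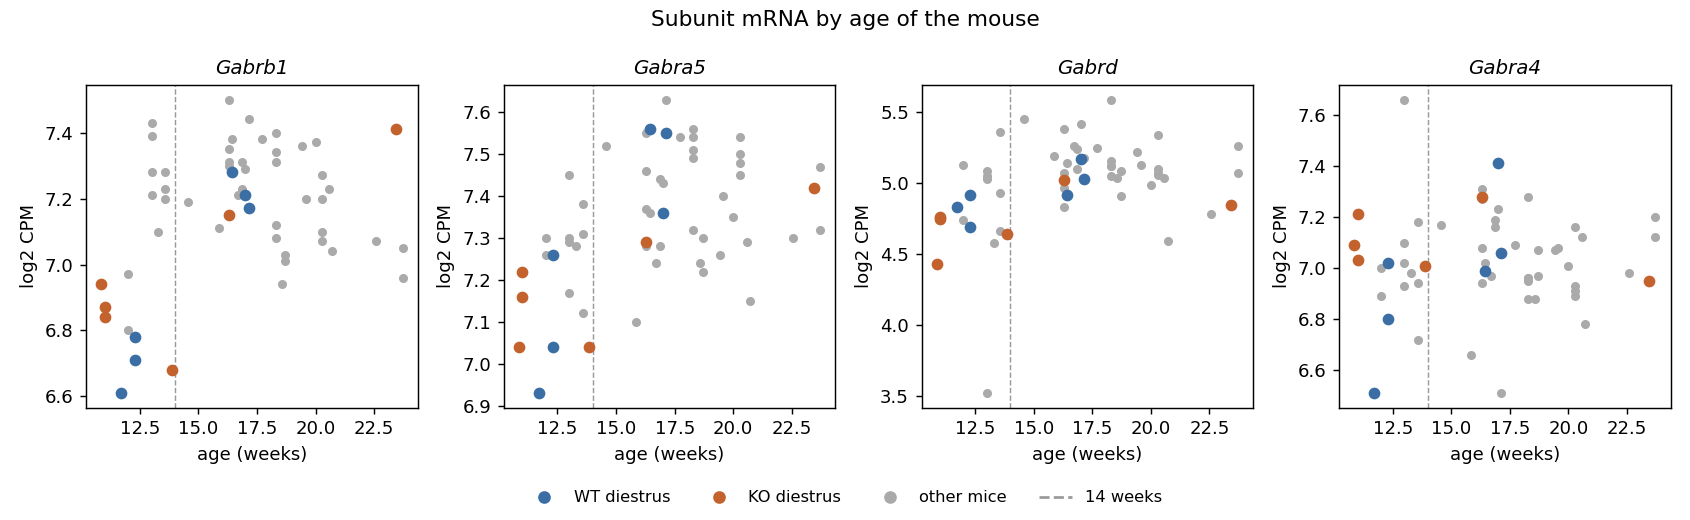
Levels of Gabrb1, Gabra5, Gabrd and Gabra4 (log2 CPM, vertical axes with different ranges) against the age of the mouse in weeks, 1 point per mouse, with a dashed line at 14 weeks. Blue and orange points are WT and KO diestrus mice and grey points are the other mice. Diestrus mice left of the line held 6.61 to 6.94 for Gabrb1, and young mice of other groups 6.80 to 7.43.

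Gabrb2 encodes the beta2 subunit, part of the most common receptor of the adult brain. It was the least stable member, from 2.18 to 5.16 log2 CPM on counts of 166 to 1725, with a within-group SD of 0.59. The lowest values, 2.18 in WT proestrus, 2.68 in a KO male and 2.94 in a WT male, came from libraries with weights of 0.19, 0.28 and 0.37, among the lowest of the series. It was called in no comparison. KO proestrus, at 2.99, 3.92, 3.93 and 4.12, lay below KO estrus, at 4.17 to 5.16 with a median of 4.54, without overlap. That difference, 0.62 ± 0.26, had an FDR of 0.191. The SE of its difference between 2 groups was 0.21 to 0.31, so its differences are known only loosely.

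Gabrd encodes the delta subunit, the mark of extrasynaptic receptors that respond to neurosteroids. In KO diestrus its levels had a lowest of 4.43, a median of 4.76 and a highest of 5.02 log2 CPM. KO proestrus held 4.93, 5.05, 5.09 and 5.45, and KO males 5.05 to 5.59 with a median of 5.12. The males did not overlap with diestrus and proestrus did. Gabrd was 0.43 ± 0.12 (FDR = 0.00435) higher in KO proestrus than in KO diestrus, and lower in KO diestrus than in KO males, with a log2 fold change of -0.46 ± 0.11 (FDR = 0.000802). In KO estrus the lowest was 3.52, the median 4.91 and the highest 5.38, the lowest from a library with a weight of 0.39, and estrus differed from diestrus by 0.16 ± 0.12 (FDR = 0.276). WT mice showed no called difference. WT diestrus had a lowest of 4.69, a median of 4.92 and a highest of 5.17, and its differences were 0.22 ± 0.14 (FDR = 0.264) to proestrus, 0.27 ± 0.12 (FDR = 0.0918) to estrus and -0.26 ± 0.13 (FDR = 0.191) from metestrus.

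The young diestrus mice were again the lower ones. Over both genotypes Gabrd held 4.43 to 4.92 with a median of 4.75 in the 7 young diestrus mice and 4.85 to 5.17 with a median of 5.02 in the 5 older ones. Without the young mice KO proestrus was 0.20 (FDR = 0.885) above KO diestrus and KO diestrus minus male was -0.23 (FDR = 0.801). With each single mouse left out, both Gabrd calls passed, at 0.37 to 0.51 and -0.51 to -0.40. KO minus WT was -0.33 ± 0.12 (FDR = 0.414) in metestrus, -0.33 ± 0.11 (FDR = 0.218) in estrus and -0.17 ± 0.06 (FDR = 0.0737) over all groups, none of which passed. Gabrd and Gabra4, which encode partners, had a correlation of -0.186 over the 55 libraries, which share depth and composition within each library. 

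Against males, WT females gave no call of a member. In WT mice the share of all genes called was 0.0309% for metestrus, 0.068% for diestrus, 0.0309% for proestrus and 0.0495% for estrus against males. Limma, edgeR and DESeq2 each called 0 of 28 combinations, with 4 at an unadjusted p under 0.05 by limma. Of all 16168 genes, 609 to 2626 were under that p by limma in these WT comparisons. In KO mice the shares were 0.359% for metestrus, 28.7% for diestrus, 0.315% for proestrus and 7.66% for estrus, and the 3 member calls, Gabra5, Gabrb1 and Gabrd, were all in diestrus. The 3 of 7 members stand beside a background of 28.7%. Of these 3, edgeR called Gabrd and DESeq2 called Gabra5 and Gabrd, beside shares of all genes that are not given here. With equal library weights in limma, 1 of the 13 member calls of all comparisons remained, Gabrb1 between WT estrus and diestrus. Gabra2, Gabra5 and Gabrd were lower in KO metestrus than in KO males, by fitted differences of -0.73 ± 0.19 (FDR = 0.0563), -0.16 ± 0.07 (FDR = 0.319) and -0.31 ± 0.11 (FDR = 0.187). None of these was called. Their values did not overlap, though the nearest mice were at 7.30 and 7.32 for Gabra5 and at 5.04 and 5.05 for Gabrd. The other members overlapped. All stages of a genotype were set against the same males. Among mice of Cnih3 x B6 parents alone, 4 WT combinations were called, Gabra5, Gabrb1 and Gabrb2 in diestrus and Gabrb2 in proestrus, the last resting on 1 WT proestrus mouse. In that subset 42.7% of all genes were called between WT diestrus and males and 16.6% between WT proestrus and males.

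Whether a stage difference itself differed between genotypes was tested as an interaction. The interaction for each of the 6 pairs of stages called 0% of all genes. For a pair, 421 to 2648 of all 16168 genes had an unadjusted p under 0.05 by limma. These background values are those of limma, and those of edgeR and DESeq2 are not given here. Limma called 0 of 42 combinations of members, with 4 at an unadjusted p under 0.05, and edgeR and DESeq2 called 0 with 2 each. The 4 were all Gabra2, with interactions of 0.85 ± 0.30 (FDR = 0.195) from metestrus to proestrus, 0.72 ± 0.28 (FDR = 1) from metestrus to estrus, 0.83 ± 0.30 (FDR = 0.315) from diestrus to proestrus and 0.70 ± 0.28 (FDR = 1) from diestrus to estrus. A stage call in one genotype and not in the other is therefore not shown to differ between genotypes for any member.

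With the 10 group means of a gene put in order, neighbouring means lay close, as 10 ordered means must. The widest gap between neighbours was 0.27, for Gabra2, and for each of the 7 members 0 of the 9 gaps exceeded the within-group SD of single mice. This describes neighbours only, and groups farther apart in the order are compared by the differences above.

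Of the GABA-A receptor genes outside the 7, Gabrg3, Gabrg1 and Gabrr2 are given here, from a list chosen with results of these data known. Gabrg3, for the gamma3 subunit, rose by 0.69 ± 0.16 (FDR = 0.00201) from diestrus to estrus in WT mice and by 0.63 ± 0.14 (FDR = 0.000952) in KO mice. Without the 7 young diestrus mice these were 0.37 (FDR = 0.754) and 0.06 (FDR = 1). Among the members, Gabrb1 was called in the same direction in both steps, Gabra2 was called in the opposite direction in the WT step, and Gabra3, Gabra4, Gabra5, Gabrb2 and Gabrd were called in neither. Gabrg1 and Gabrr2, for the gamma1 and rho2 subunits, were tested and called in neither step. The median of all genes was 0.01 in each.

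Genes around the receptor gave calls in both directions. Of 20 scaffolds and receptor partners, 6 rose and 2 fell from diestrus to estrus in WT mice, and 9 rose and 2 fell in KO mice, with medians of 0.09 and 0.04. Shisa7, which encodes a transmembrane partner of GABA-A receptors, rose by 0.76 ± 0.15 (FDR = 0.000735) in WT and by 0.81 ± 0.14 (FDR = 5.8e-05) in KO mice. Clptm1, for a protein that holds receptors back from the surface, was 0.45 ± 0.11 (FDR = 0.00285) higher in KO estrus than in KO diestrus. In WT mice the same step was 0.41 (FDR = 0.0121). Of 11 genes of GABA synthesis, transport and chloride transport, 4 rose and 0 fell in WT mice, and 4 rose and 2 fell in KO mice, with medians of 0.15 in both. Slc12a2, for a chloride importer, rose by 0.86 ± 0.19 (FDR = 0.0019) in WT and 1.09 ± 0.18 (FDR = 2.28e-05) in KO mice. Of 6 genes for GABA-B receptors, the G-protein-coupled receptors for GABA, and their partners, 2 rose and 0 fell in each genotype, Gabbr1 (0.40 ± 0.11 in WT, FDR = 0.0103, and 0.50 ± 0.11 in KO, FDR = 0.000609) and Gabbr2 (0.57 ± 0.14 in WT, FDR = 0.00337, and 0.68 ± 0.13 in KO, FDR = 0.000151). The background in these steps was 22.1% of all genes in WT and 30.7% in KO mice. Without the 7 young diestrus mice, limma called 0% of all genes in either step, and the differences in WT and KO mice were 0.21 and -0.02 for Shisa7, 0.06 and 0.18 for Clptm1, 0.17 and 0.11 for Slc12a2, 0.05 and 0.08 for Gabbr1 and 0.09 and 0.03 for Gabbr2.

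The nuclear and oligodendrocyte lists moved with the same comparisons. From diestrus to estrus, 6 of 8 nuclear RNAs rose and 0 fell in WT (median 1.45) and in KO mice (median 1.75). Of 15 oligodendrocyte markers, 9 rose and 0 fell in WT (median 0.64) and 11 rose and 0 fell in KO mice (median 0.68). Their part in the member differences was not tested.

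Over the 55 libraries, the genes with levels most like each member were found by Pearson's correlation, as a description that shares depth and library between genes. Gabrb2 was followed most closely, by Spcs3 (0.949), Lifr (0.938) and AI593442 (0.926). Gabrb1 was next, with Ntrk3 (0.910), Cacna2d3 (0.907) and Ptpre (0.907). Gabra4 went with Brinp1 (0.794), Svop (0.788) and Scamp1 (0.776), and Gabra5 with Nell2 (0.793), Syt1 (0.784) and Rtn4 (0.783). Gabrd went with Slc30a3 (0.771), Ntf3 (0.761) and St6galnac5 (0.756), Gabra3 with Dock3 (0.674), Kantr (0.671) and Csrnp3 (0.663), and Gabra2 with Wdfy1 (0.622), Tafa1 (0.546) and Ogn (0.530). Gabra2 had no close neighbour in this sense. Among the members themselves the highest correlations were 0.697 between Gabra4 and Gabrb2, 0.614 between Gabra5 and Gabrb1 and 0.534 between Gabra5 and Gabrd, and the lowest was -0.283 between Gabrb2 and Gabrd. With group means removed the first 3 were 0.677, 0.676 and 0.396.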

How the data were processed

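RNA was poly-A selected, made into cDNA with a kit that keeps no strand, and sequenced as paired reads. The authors aligned reads to GRCm38 with STAR 2.7.9a, counted them per gene with featureCounts 2.0.3 and deposited the raw counts. Of counts from 1 to 10, 60.1% were even, so both reads of a pair may have been counted. The authors also deposited estimated counts per transcript (expected counts, used here without rounding or a test), and the submitters' processing notes name Salmon 1.5.2. The authors also deposited log2 CPM, which the values computed here matched to within 5.3e-15 over the members. Of the 55774 lines 287 repeated a gene and were left out, and 1 column of no listed mouse was not used. Apart from the match of log2 CPM, the authors' CPM tables were not used.

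Genes over 1 CPM in at least 10 libraries, without 5 ribosomal genes, received TMM factors (edgeR 4.0.16, R 4.3.3) before voomWithQualityWeights in limma 3.58.1, with 1 mean for each of the 10 groups over all 55 mice, as the study's methods describe. Comparisons were contrasts of group means with a Benjamini-Hochberg FDR within each over all 16168 genes. Beside the members, other receptor genes, up to 3 genes with the smallest FDR of each other list, and the 3 genes most correlated with each member are named, except that some genes are not reported here. The members and lists were chosen with earlier results of these data known. No 2 libraries correlated above 0.991. Each library is 1 mouse. Ages and parental matings came from the labels and the study's sample table. Alternatives were edgeR's quasi-likelihood test, DESeq2 1.42.0, other scaling, weights and filters, age as a covariate, subsets of mice, each mouse left out in turn and, chosen after seeing the data, the parental mating as a covariate and leaving out the 7 diestrus mice under 14 weeks. The scripts were tested on simulated data. Promoter windows are from RefSeq (GRCm38.p6), and Gabrd had no window in the table used.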

Additional observations from a re-analysis of the deposited data

Results flagged for a closer look

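In groups of 4 to 7 mice, 1 mouse stood far from the rest by Dixon's ratio in 7 of 70 combinations of a member with a group. Chance alone gives about 1 in 20. The combinations share libraries and some members correlate, so the 7 of 70 cannot be read as an excess over that rate. In WT proestrus, 1 mouse was at 7.27 log2 CPM for Gabra2, with the nearest other at 6.67, and the same library was at 2.18 for Gabrb2, with the nearest other at 3.98. That library had the lowest quality weight of the series, 0.19, and an RNA integrity class below 8, and it was the 1 WT proestrus mouse with Cnih3 x B6 parents. For Gabra5, a WT male was at 7.30 (nearest 7.45), a KO metestrus mouse at 7.12 (nearest 7.28) and a KO proestrus mouse at 7.52 (nearest 7.31). For Gabra4 a WT male was at 7.20, with the nearest other at 6.95, and for Gabrd a KO male was at 5.59, with the nearest other at 5.26, in a library with a weight of 0.28.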

How the results depend on the processing

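Of the 13 member calls, all 13 held with DESeq2 size factors in limma and with mice that share the leading number of their identifier treated as a random block, 12 without libraries of low RNA integrity, 10 of 12 with only the groups compared in the fit, 8 with parental mating as a covariate, 7 with age as a covariate, 7 without the filter on low counts, 6 in mice of Cnih3 x B6 parents, 2 by DESeq2, 1 by edgeR, 1 without quality weights, 1 without the 7 young diestrus mice and 0 in mice of 14 weeks or more. The direction turned for Gabrb1 in mice of 14 weeks or more (KO proestrus minus diestrus -0.06, KO diestrus minus male 0.11) and without the 7 young diestrus mice for Gabrb1 (KO diestrus minus male 0.11) and Gabra2 (KO diestrus minus metestrus -0.01). The cause was not tested. For most of these settings the share of all genes called is not given, so a lost call may go with fewer calls among all genes.

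Each count here takes in every member call of a setting, including calls that the fit as reported did not make. The 3 calls between WT stages became 0 by edgeR and by DESeq2. The count was 1 without weights, without the filter, with the mating covariate and without the 7 young mice. Without the 7, all 3 were lost, with the values given above. The 1 in that setting was a call that the fit as reported did not make. The 4 between KO stages became 0 by edgeR, by DESeq2, without weights, in older mice and without the 7. The 0 between WT females and males became 1 in older mice and 4 in mice of Cnih3 x B6 parents. The 3 between KO females and males became 1 by edgeR and 0 without weights, with age, in older mice and without the 7. The 2 between genotypes within a group became 1 with age, without low RNA integrity and without the 7, and 0 by edgeR, by DESeq2, without weights, without the filter, in older mice, in mice of Cnih3 x B6 parents, with only the groups compared and with the mating covariate. The 1 over all groups became 0 by edgeR, by DESeq2, without weights, in older mice, with the mating covariate and without the 7.

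With single mice left out, the counts were 1 to 9 between WT stages, 3 to 6 between KO stages, 0 to 2 and 2 to 5 against males in WT and KO mice, 0 to 2 between genotypes within a group, 1 to 2 over all groups and 0 to 1 for interactions. The share of all genes called with a mouse left out is not given. A changed count may go with a changed share among all genes and is not shown to be particular to the members. The 9 came without the WT diestrus mouse with a weight of 0.33, and the 1 without any 1 of the 3 young WT diestrus mice. The count was 8 without either other older WT diestrus mouse. Against males, the 2 in WT mice came without any 1 of the 3 older WT diestrus mice, 1 without any 1 of 3 WT males, and the 5 in KO mice without 1 KO estrus mouse. Between genotypes within a group the count changed with 25 of the 55 mice and was 0 without either of 2 WT males or 2 WT estrus mice. Over all groups it was 2 without any 1 of 7 mice, and the 1 interaction came without either of 2 young WT diestrus mice. No paired analysis was possible because the labels do not say what the leading numbers of the mouse identifiers mark. Some groups share them, and the random block on them above, with a correlation of -0.00248, does not pair mice. Counts were lowest for Gabrb2, down to 166, and Gabra3, down to 323, where depth limits precision most.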
